A study of Mus musculus with 8 samples.

Results

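The genes described here are the integrin chains, the laminin chains and 4 basement membrane partners of laminin (nidogen-1, nidogen-2, perlecan and agrin). They were chosen by gene symbol, and 41 entries are described (40 symbols, Itgam being listed under 2 identifiers) among the 53801 genes of the table. Of these, 27 entries encode integrin chains, 10 encode laminin chains and 4 encode the partners. RNA was sequenced from PDGFRα+ PDPN+ stromal cells of MO5 tumors, which grow from B16 melanoma cells carrying ovalbumin placed under the skin. All mice were ADAM12-GFP reporters, a bacterial artificial chromosome transgene in which the Adam12 promoter drives GFP, and the study's methods describe hosts of 8 to 12 weeks on the C57Bl/6 background. At day 8 the cells were sorted free of CD45 and CD31 and divided by GFP, giving 4 libraries of GFP+ (ADAM12+) cells and 4 of GFP- (ADAM12-) cells. Both groups carry the transgene and the tumor and were parted by the GFP signal. The labels do not say whether replicates came from separate mice, so p-values measure the spread between these libraries.

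A basement membrane is a thin sheet of matrix against which epithelia, vessels, muscle and nerve rest. Its laminins are secreted as trimers of 1 α, 1 β and 1 γ chain and join into a network, which nidogens and perlecan tie to a second network of type IV collagen. Integrins are pairs of 1 α and 1 β chain in the cell membrane, and the α chain largely decides whether the pair holds laminin, collagen, fibronectin or a protein on another cell. Fibroblasts make much of the laminin, nidogen and collagen of the membranes around muscle, nerve and vessels, and hold interstitial matrix through integrins built on the β1 and αv chains.

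Total counts ran from 7868787 to 17535099 in 3 of the GFP- libraries and from 8776925 to 31666734 in the GFP+ libraries. GFP- replicate 3 held 883144 counts, so that 1 read there was worth 10.99 normalised counts, against 0.34 to 1.39 in the other libraries. A count of 0 allows up to 3 reads, or 32.96 normalised counts in GFP- replicate 3 and 1.01 to 4.17 elsewhere, and covers counting error only. Adam12 itself, the gene behind the reporter, rose in GFP+ by 0.75 on the log2 scale (SE 0.24, DESeq2 adjusted p = 0.0266), with 1693, 1605, 1231 and 920 normalised counts in GFP- and 1833, 2396, 2039 and 2938 in GFP+; edgeR gave an adjusted p of 0.0643, and the call was lost on dropping, singly, GFP+ replicate 2 (adjusted p 0.0792) or 4 (0.121) or GFP- replicate 3 (0.0709) or 4 (0.0852). The sorted cells were rich in fibroblast markers in both groups, and all 9 markers of that list were detected. Summed over these 9 genes, the level ran from 255144 to 561476 normalised counts in GFP- and from 669153 to 767841 in GFP+, and 6 of the 9 (Pdgfra, Pdpn, Col3a1, Dcn, Lum and Thy1) were called higher in GFP+ by DESeq2. Col3a1 was not called by edgeR (adjusted p = 0.0902), and its DESeq2 call was lost on dropping any 1 GFP+ replicate or GFP- replicate 3. That of Pdpn was lost on dropping GFP+ replicate 3 or GFP- replicate 1 or 4. Of 10 melanocyte markers, 9 were called lower in GFP+ and Mc1r was at 0 throughout, with sums of 27216 to 81460 in GFP- against 5778 to 14099 in GFP+. The 8 pericyte markers summed to 477 to 879 in GFP- and 739 to 1322 in GFP+, with Abcc9 called higher by DESeq2 (log2 fold change 1.15, adjusted p = 0.0493) but not by edgeR (0.0975), a call lost on dropping any 1 of GFP+ replicates 2, 3 and 4 and GFP- replicates 1 and 2, and Higd1b at 0 throughout. The 10 endothelial markers summed to 1492 to 2934 in GFP- and 1908 to 3560 in GFP+, with Vwf called lower (-3.30) and Cdh5, Tie1, Emcn and Egfl7 at means of at most 11 in both groups. Most of that sum was Tek (means 1309 and 1379) and Kdr (505 and 1103, log2 fold change 1.14, DESeq2 adjusted p = 0.107), and Kdr was called higher without GFP+ replicate 4 (8.02e-04); Pecam1 (208 and 261) passed in limma voom (0.0438) and not in DESeq2 with all libraries (0.731), but it was called higher by DESeq2 without GFP- replicate 3 (0.00455). The part these shifts in marker level play in the results below was not tested, apart from a scaling to the fibroblast markers.

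In GFP+ cells the laminin chain genes Lama2, Lama4, Lamb1, Lamb2 and Lamc1, both nidogen genes and the perlecan gene Hspg2 rose, by 1.54 to 2.98 times, although Nid1, Hspg2, Lama4 and Lamb2 changed sign on a scale set by fibroblast markers, which moves the median of all genes by -0.87. The integrin chains showed 1 call, in Itga2b. Among 36 genes with an adjusted p, DESeq2 called 10 higher in GFP+ (27.8%) and 0 lower; over all 15283 genes tested it called 4.66% higher and 4.76% lower. edgeR called 8 of these 10 higher, those just named, and 0 lower, against 2.83% of all genes called higher. limma voom called 10 members higher (4.5% of all genes) and 0 lower. At an unadjusted DESeq2 p below 0.05, 13 members lay higher and 2 lower, Itga6 (0.00859) and Lama5 (0.0123). Over all genes, 3278 passed that threshold in either direction. The counts of 10 genes did not overlap between the groups with GFP+ on top, and over all genes tested this held for 6.37%. The 9 laminin and 4 partner genes with an adjusted p had a median log2 fold change of 0.87, the 23 integrin chains one of 0.12, and all genes tested one of -0.01. In bulk RNA, a change in the share of cells that express a gene and a change in RNA per cell cannot be told apart.

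The rise of the laminins and partners was close in size to that of the fibroblast markers. With libraries scaled to those 9 markers, an alternative chosen after seeing the data, the median of all genes shifted by -0.87, and the median of the laminins and partners was 0.02 and that of the integrins -0.76. On that scale Nid2 was the 1 member called higher (0.69, adjusted p = 0.0352 by DESeq2), where 0.548% of the 15873 genes tested there were. Of the 36 members counted above, 11 were called lower on that scale, where 38.0% of those 15873 genes were. Itga3, outside those 36, had an adjusted p there (0.396 by DESeq2) and was not called. Since the scaling moves all genes by about the same amount, a gene whose rise is smaller than the shift falls below 0 by construction, as Nid1 (-0.11), Hspg2 (-0.057), Lama4 (-0.22) and Lamb2 (-0.15) did.

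**Figure D1:**
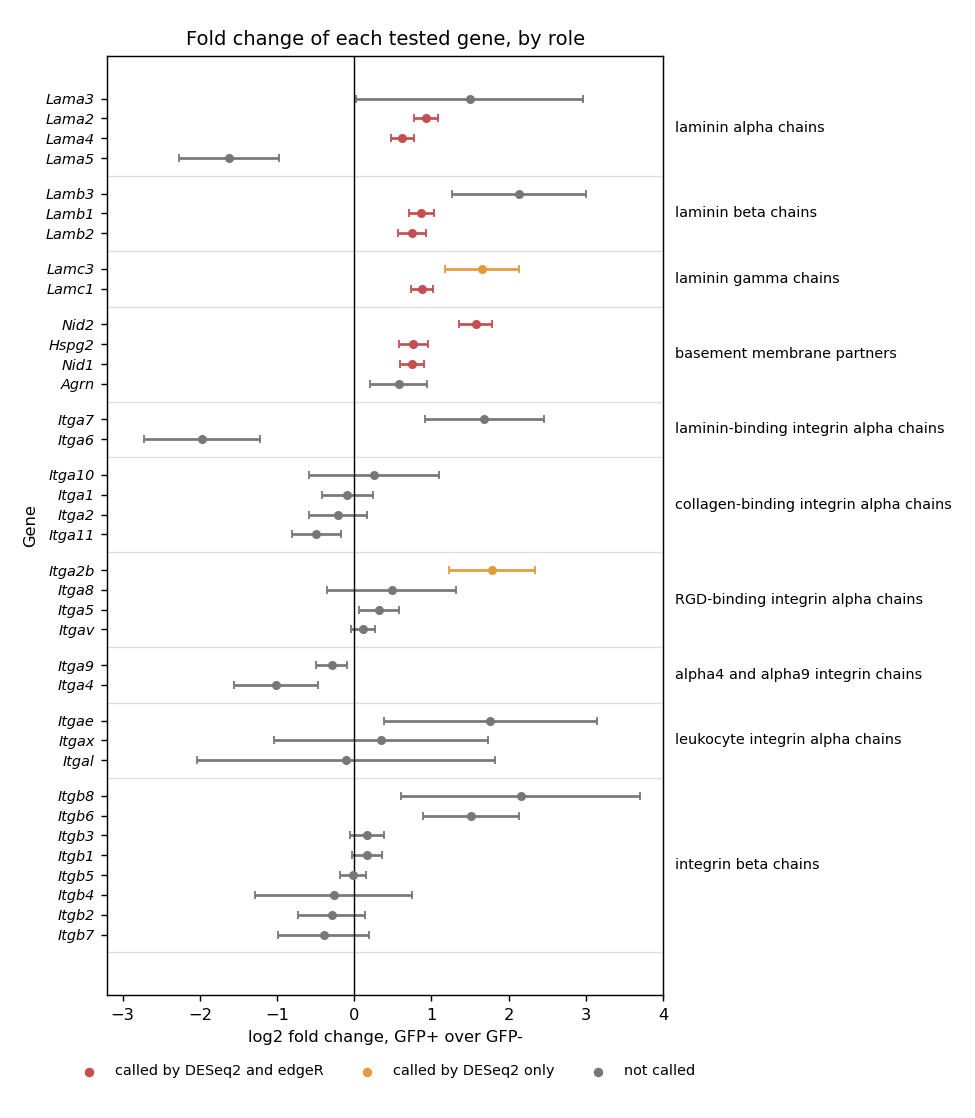
DESeq2 log2 fold change (GFP+ over GFP-, horizontal axis) of the 36 genes with an adjusted p, grouped by role; points are estimates, bars are 1 standard error, and colour marks the calls. The laminin and partner genes called by both tests lie between 0.62 and 1.57, while Itgb1 (0.16) and Itgav (0.12) lie closer to 0; scaled to 9 stromal fibroblast markers, Nid1, Hspg2, Lama4 and Lamb2 fall below 0.

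The stretches before the start sites of 3 of the 8 genes called by both tests are shown, since these genes moved together. RefSeq promoter entries (GRCm38.p6) matched 5 of the 8, and in 3 the first 190 bases of the entry, from 250 to 61 bases before the RefSeq start, lie outside every transcript of GENCODE M21. No entry was found for Lama4, Lamc1 and Nid2. Capitals mark the GC box (GGGCGG) and the CCAAT box (CCAAT) on either strand, which do not overlap here. All 3 are on the plus strand: Hspg2 at chr4:137468553-137468742, Lamb1 at chr12:31265043-31265232 and Nid1 at chr13:13437352-13437541.
Hspg2: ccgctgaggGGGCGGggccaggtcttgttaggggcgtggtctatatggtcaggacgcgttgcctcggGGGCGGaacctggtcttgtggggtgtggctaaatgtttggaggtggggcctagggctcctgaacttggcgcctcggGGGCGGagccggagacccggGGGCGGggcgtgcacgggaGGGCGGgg
Lamb1: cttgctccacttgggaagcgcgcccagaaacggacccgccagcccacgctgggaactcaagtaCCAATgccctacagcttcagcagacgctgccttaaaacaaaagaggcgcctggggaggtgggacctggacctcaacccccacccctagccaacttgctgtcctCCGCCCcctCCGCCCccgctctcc
Nid1: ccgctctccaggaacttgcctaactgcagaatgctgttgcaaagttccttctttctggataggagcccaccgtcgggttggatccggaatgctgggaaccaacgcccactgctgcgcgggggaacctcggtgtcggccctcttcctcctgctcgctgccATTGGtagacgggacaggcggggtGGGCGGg
The GC box occurred 5 times before Hspg2, 2 times before Lamb1 and 1 time before Nid1, and 22.8% of the 32851 RefSeq windows of this length and place hold at least 1. The GC content was 70.5% before Hspg2, 64.2% before Lamb1 and 62.6% before Nid1, against a median of 51.6% over all windows. The shares over all windows were not matched for GC content. Lamb1 and Nid1 each held 1 CCAAT box, as 26.7% of all windows do in at least 1 copy. None of the 3 held the TATA box letters TATAAA (8.73% of all windows) or the AP-1 letters TGANTCA (5.22%). Of the 25 measured members with a promoter entry, 10 had the GC box, 4 the CCAAT box, 0 the TATAAA letters and 0 the AP-1 letters in that window. These are letter matches, and no binding was measured.

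Lamc1, the γ1 chain found in most laminin trimers (ENSMUSG00000026478, chr1:153218922-153332786, minus strand, GRCm38), was the most abundant laminin gene per kilobase of exon, at a mean of 1971 normalised counts per kb. It gave 11803, 11046, 13108 and 10046 normalised counts in GFP- and 23913, 19480, 22190 and 18822 in GFP+. The groups did not overlap, and the lowest GFP+ library stood well above the highest GFP- library. The log2 fold change was 0.88 (SE 0.15, adjusted p = 3.52e-07 by DESeq2 and 0.00358 by edgeR).

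Of the β chains, Lamb1 (ENSMUSG00000002900, chr12:31265234-31329644, plus strand), the usual partner of γ1 in vessel and embryonic membranes, gave 4907, 4782, 4856 and 3523 normalised counts in GFP- and 8810, 7283, 8196 and 8699 in GFP+. Its rise on the log2 scale was 0.87 (SE 0.16, adjusted p = 4.06e-06 by DESeq2 and 0.00491 by edgeR). Lamb2 (ENSMUSG00000052911, chr9:108479736-108490530, plus strand), the β chain of the neuromuscular synapse and the kidney filter, gave 3441, 3679, 4593 and 3889 in GFP- and 8337, 6005, 6550 and 5233 in GFP+. It rose by 0.75 (SE 0.19, adjusted p = 0.00166 by DESeq2 and 0.0199 by edgeR), with GFP+ replicate 1 the highest library. In neither gene did the groups overlap.

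The α chain gives a trimer its cell-binding end. Lama2 (ENSMUSG00000019899, chr10:26980036-27619758, minus strand), whose loss causes a congenital muscular dystrophy, gave 4780, 4880, 6724 and 5632 normalised counts in GFP- and 10352, 9349, 10870 and 11237 in GFP+. The log2 fold change of 0.93 (SE 0.16, adjusted p = 3.52e-07 by DESeq2 and 0.00295 by edgeR) was the largest among the abundant laminin chains, those above 1000 normalised counts. Lama4 (ENSMUSG00000019846, chr10:38965515-39110188, plus strand), the α chain of vessel walls and fat, gave 5488, 5694, 5691 and 4250 in GFP- and 8897, 7357, 8264 and 7913 in GFP+. It rose by 0.62 (SE 0.15, adjusted p = 0.0012 by DESeq2 and 0.0258 by edgeR), the smallest rise among the called genes. For both α chains the 4 GFP+ libraries lay above all 4 GFP- libraries.

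Both nidogens, the rods that link laminin to type IV collagen, rose. Nid1 (ENSMUSG00000005397, chr13:13437551-13512269, plus strand) was the most abundant member of all at 3770 normalised counts per kb, with 19110, 21064, 21865 and 16281 normalised counts in GFP- and 35569, 29354, 36728 and 29438 in GFP+. The rise was 0.74 on the log2 scale (SE 0.16, adjusted p = 1.02e-04 by DESeq2 and 0.0129 by edgeR). Nid2 (ENSMUSG00000021806, chr14:19751265-19811787, plus strand), the second nidogen, stood lower in level and changed more, with 484, 641, 868 and 527 normalised counts in GFP- and 2020, 1618, 2052 and 1615 in GFP+. Its log2 fold change of 1.57 (SE 0.21, adjusted p = 7.71e-11 by DESeq2 and 0.00122 by edgeR) was the largest among the 8 genes called by both tests. Rtraf, a gene that overlaps Nid2 on the opposite strand, had a log2 fold change of -0.11 (SE 0.27), and the authors counted reads by strand.

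Hspg2, the gene of the heparan sulfate proteoglycan perlecan (ENSMUSG00000028763, chr4:137468769-137570630, plus strand), gave 19263, 18845, 17283 and 11838 normalised counts in GFP- and 32624, 24805, 29505 and 27261 in GFP+. GFP- replicate 4 was the lowest, and the groups did not overlap. The log2 fold change was 0.76 (SE 0.19, adjusted p = 0.00171 by DESeq2 and 0.0232 by edgeR); the study names this gene among those it picked from these same libraries, so its direction is not independent evidence. Agrn, which gathers acetylcholine receptors at the nerve-muscle synapse, gave 262, 969, 1066 and 1041 in GFP- and 1419, 1066, 1210 and 1246 in GFP+. Its log2 fold change of 0.57 (SE 0.36, DESeq2 adjusted p = 0.384) did not pass, with GFP- replicate 1 far below the other libraries and the remaining GFP- libraries close to the lowest GFP+ one.

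**Figure D2:**
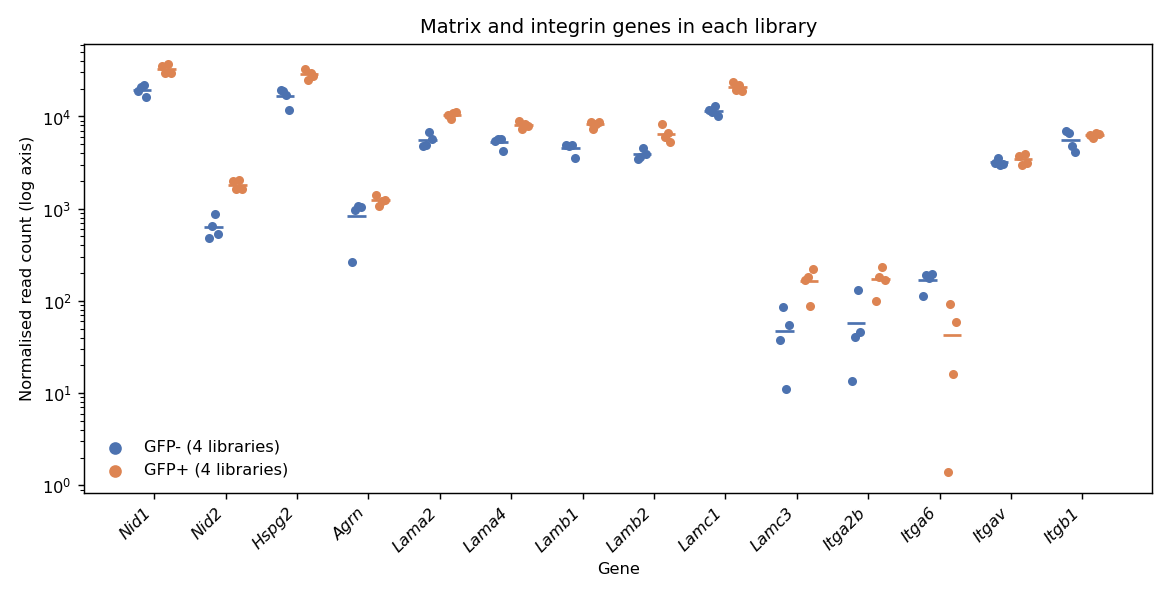
Normalised read count of 14 genes in each library (log axis); points are the 4 GFP- and 4 GFP+ libraries, and short lines are group means. Nid1, Nid2, Hspg2, Lama2, Lama4, Lamb1, Lamb2 and Lamc1 show no overlap between groups, whereas Itgav and Itgb1 overlap; scaled to 9 stromal fibroblast markers, Nid1, Hspg2, Lama4, Lamb2, Agrn, Itgav and Itgb1 change sign.

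The scarcer Lamc3 also passed in DESeq2 but not in edgeR. Lamc3 (ENSMUSG00000026840, chr2:31887291-31946539, plus strand), a γ chain with little known use in skin, gave 38, 85.3, 11 and 54.6 in GFP- and 168, 180, 87.6 and 222 in GFP+. The log2 fold change of Lamc3 was 1.65 (SE 0.48, adjusted p = 0.0104 by DESeq2 and 0.0897 by edgeR), and the lowest GFP+ library stood just above the highest GFP- library. The DESeq2 call of Lamc3 was lost on dropping GFP+ replicate 2 or 4 (adjusted p up to 0.0895).

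Lamb3 and Lama3, chains of the laminin under keratinocytes, were scarce. Lamb3 had 0, 25.8, 87.9 and 17.9 normalised counts in GFP- and 243, 95.4, 75.3 and 77.2 in GFP+, a log2 fold change of 2.13 (SE 0.87, DESeq2 adjusted p = 0.107) that did not pass with all libraries. Without GFP- replicate 3 it passed in DESeq2 (adjusted p = 0.0042). Lama3 stayed between 0 and 21.8 in every library (log2 fold change 1.49, SE 1.47, DESeq2 adjusted p = 0.625). Lama5, an α chain of mature vessels and epithelia, had 102, 33.7, 65.9 and 44.7 in GFP- and 36.1, 18.8, 5.38 and 19.8 in GFP+, a log2 fold change of -1.62 (SE 0.65, DESeq2 adjusted p = 0.0986). It passed as lower without GFP+ replicate 1 (adjusted p = 0.0302). The 8 keratinocyte markers summed to 33 to 387 in GFP- and 35.6 to 84.5 in GFP+, with 0 of them called by DESeq2, edgeR or limma voom and 2 at an unadjusted DESeq2 p below 0.05, and their part in these values was not tested. Lama1, the α chain of early embryonic membranes, averaged 4.75 raw counts, was below the minimum of 10 and is not described further.

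Per kilobase of exon, the make-up of the laminin α and β chains differed little between the groups. Lama4 and Lama2 made up nearly all α chain signal. The Lama4 share was 56.0% ± 5.29 (SD, n = 4) in GFP- and 51.1% ± 2.05 (n = 4) in GFP+, and that of Lama2 43.1% ± 5.37 and 48.7% ± 2.07. Lamb2 and Lamb1 split the β chains, at 58.2% ± 4.81 and 41.4% ± 5.0 in GFP- and 55.5% ± 4.47 and 43.6% ± 4.79 in GFP+. As a share of all counts, the laminin genes described here took 0.286% to 0.362% in GFP- and 0.474% to 0.498% in GFP+, and the partners 0.322% to 0.423% and 0.541% to 0.609%. Integrin genes took 0.171% to 0.214% and 0.176% to 0.186%, with the GFP+ libraries inside the GFP- range.

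**Figure D3:**
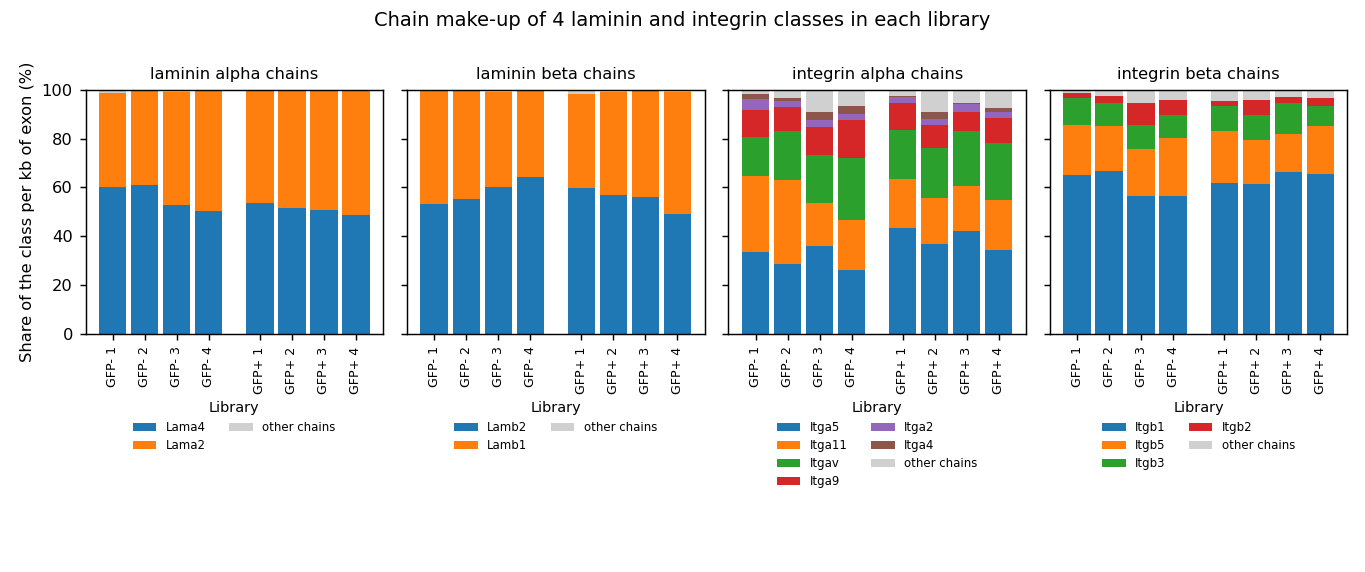
Share of each chain within its class, per kilobase of exon, in each of the 8 libraries (stacked bars from 0 to 100%); chains whose mean share stays under 2.5% in both groups are pooled as other chains. Lama4, Lamb2, Itga5 and Itgb1 have the highest mean share of their class in both groups.

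The beta integrin chains include the common partner of most α chains. Itgb1, encoding β1 (ENSMUSG00000025809, chr8:128685654-128733200, plus strand), was the most abundant integrin gene at 1458 normalised counts per kb, with 6904, 6578, 4801 and 4156 normalised counts in GFP- and 6260, 5828, 6683 and 6398 in GFP+. The GFP+ libraries lay inside the GFP- range. Its log2 fold change was 0.16 (SE 0.19, 95% interval -0.22 to 0.54, DESeq2 adjusted p = 0.705), an interval that leaves out a rise of the size fitted for Lamc1. Itgb5 (-0.02, interval -0.35 to 0.32) and Itgb3 (0.16, interval -0.27 to 0.60), which pair with αv to hold vitronectin, also did not pass. Within the β class, Itgb1 made up 61.3% ± 5.55 per kb in GFP- and 63.8% ± 2.54 in GFP+, followed by Itgb5 at 20.5% ± 2.53 and 18.6% ± 2.39.

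Among α chains that bind the Arg-Gly-Asp motif of fibronectin and related proteins, Itga5, the main fibronectin receptor chain and the most abundant α chain per kb (530), gave 3004, 2327, 2505 and 1456 normalised counts in GFP- and 3685, 2457, 3347 and 2123 in GFP+. The groups overlapped, with a log2 fold change of 0.32 (SE 0.26, DESeq2 adjusted p = 0.535). Itgav, which holds vitronectin and latent TGF-β, ranged from 2989 to 3544 in GFP- and from 2967 to 3937 in GFP+, with a log2 fold change of 0.12 (SE 0.15, interval -0.18 to 0.41). Itga8, a kidney and smooth muscle chain, had means of 28.4 and 38.7 and an adjusted p of 0.823 by DESeq2.

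Itga2b (ENSMUSG00000034664, chr11:102453297-102470122, minus strand), known as the platelet fibrinogen receptor chain and the partner of Itgb3, was the 1 integrin gene called. It gave 13.6, 40.8, 132 and 45.7 normalised counts in GFP- and 98.6, 181, 233 and 170 in GFP+, and GFP- replicate 3 overlapped the GFP+ range. Its log2 fold change of 1.78 (SE 0.56, adjusted p = 0.0207 by DESeq2) did not pass in edgeR (0.116), and the DESeq2 call held in 3 of the 8 fits that leave out 1 library; it was lost on dropping any 1 of GFP+ replicates 2, 3 and 4 and GFP- replicates 2 and 4. The 7 platelet markers, with Gp9 at 0 in every library, summed to 8.14, 20.1, 176 and 48.8 normalised counts in GFP- and 0, 50.2, 21.5 and 36.2 in GFP+. The highest sum was in GFP- replicate 3, which also had the most Itga2b of its group. The part of these markers in the Itga2b values was not tested.

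The laminin-binding α chains were scarce beside their ligands. For Itga6, which pairs with β1 or β4, the normalised counts were 113, 191, 176 and 196 in GFP- and 1.39, 93.3, 16.1 and 59 in GFP+. All GFP+ libraries were below all GFP- libraries, yet the log2 fold change of -1.97 (SE 0.75, adjusted p = 0.0768 by DESeq2 and 0.2 by edgeR) did not pass; DESeq2 called it lower without GFP+ replicate 1 (adjusted p = 0.0362) or GFP+ replicate 2 (0.00947). Schwann cell markers moved the same way, at sums of 824 to 2434 in GFP- against 250 to 630 in GFP+ with 4 of the 6 tested called lower, and so did the melanocyte markers given above; their part in the Itga6 values was not tested. Itga7, the muscle laminin receptor chain, went from 1.36, 12.2, 54.9 and 26.8 to 91.7, 41, 49.9 and 72.5, a log2 fold change of 1.68 (SE 0.77, DESeq2 adjusted p = 0.17) that passed without GFP- replicate 3 (0.0355). Skeletal muscle markers summed to 63.1 to 253 in GFP- and 61.1 to 217 in GFP+. Itga3 had a mean of at least 10 raw counts but no adjusted p, and it was at 0 in 4 of 8 libraries and at most 17.3 in the rest. Itgb4, the hemidesmosome partner of Itga6, had 0 to 42.7 in all libraries (DESeq2 adjusted p = 0.934).

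The 4 collagen-binding α chains did not pass. Itga11, the chain of interstitial fibroblasts that holds fibrillar collagen, led the group at 347 normalised counts per kb, with 2939, 2919, 1286 and 1179 normalised counts in GFP- and 1798, 1308, 1530 and 1300 in GFP+. Its GFP- libraries fell into a higher and a lower pair, the GFP+ libraries lay between them, and the log2 fold change was -0.49 (SE 0.32, DESeq2 adjusted p = 0.39). Itga1 (means 233 and 214), Itga2 (334 and 290) and Itga10 (22 and 24.7) had adjusted p-values of 0.826 to 0.934 by DESeq2. Reads of Itga1 and Itga10 may be shared with overlapping genes on the same strand (Pelo and Gm49395, and Gm42957), so both levels are uncertain.

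Itga4, which binds VCAM1 and fibronectin and is common on lymphocytes, gave 535, 274, 670 and 523 normalised counts in GFP- and 95.8, 507, 69.9 and 308 in GFP+. The log2 fold change of -1.02 (SE 0.54, DESeq2 adjusted p = 0.265) did not pass, though DESeq2 called it lower without GFP+ replicate 2 (0.0193). Itga9, a tenascin receptor chain, gave 1545, 1213, 1231 and 1358 in GFP- and 1472, 978, 971 and 975 in GFP+ (log2 fold change -0.29, SE 0.20, DESeq2 adjusted p = 0.44). GFP+ replicate 1 alone lay within the GFP- range.

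Leukocyte integrin chains varied between libraries more than between groups. The 12 leukocyte markers summed to 1015, 876, 6010 and 2157 in GFP- and 1444, 4718, 825 and 2447 in GFP+, with 0 of 12 called by DESeq2, edgeR or limma voom and 0 at an unadjusted DESeq2 p below 0.05. Itgb2, the shared β chain of leukocytes, gave 170, 216, 560 and 349 normalised counts in GFP- and 146, 443, 194 and 242 in GFP+. Itgal, its partner on lymphocytes, gave 0, 10.7, 187 and 97.2 in GFP- and 0, 184, 25.4 and 59.7 in GFP+. GFP- replicate 3 and GFP+ replicate 2 were the highest of their groups for the marker sum, Itgb2, Itgal and Itga4. Itgax, the dendritic cell chain, reached 76.9 in GFP- and 57.6 in GFP+, and Itgae, the chain of epithelium-bound T cells, 22 and 47.7. Itgb7, the partner of Itgae and Itga4, had means of 121 and 89.6. None of these genes passed, with adjusted p-values of 0.516 to 0.986 by DESeq2. Both Itgam entries and Itgad, chains of myeloid cells, were below the minimum of 10 raw counts; the Itgam entries overlap on the same strand, so reads can be lost between them.

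**Figure D4:**
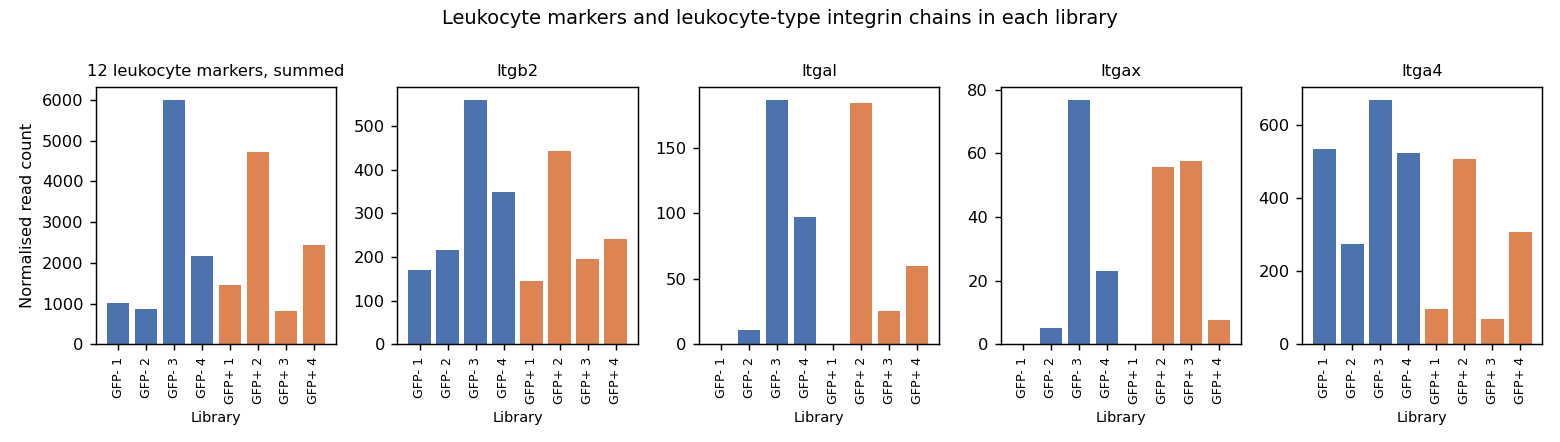
Normalised read counts (linear axes from 0) of 12 leukocyte markers summed and of Itgb2, Itgal, Itgax and Itga4 in each library, GFP- in blue and GFP+ in orange. GFP- replicate 3 (6010 for the markers) and GFP+ replicate 2 (4718) are the highest libraries of their groups for the marker sum, Itgb2, Itgal and Itga4.

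The remaining β chains pair with αv and are known for releasing TGF-β from its latent form. Itgb6, an epithelial chain, gave 21.7, 145, 319 and 94 normalised counts in GFP- and 792, 279, 239 and 259 in GFP+, with GFP+ replicate 1 standing apart. A log2 fold change of 1.51 (SE 0.62, DESeq2 adjusted p = 0.111) did not pass, but it passed in limma voom (0.0492) and in DESeq2 without GFP- replicate 3 (0.00657). Itgb8 stayed between 0 and 36.9 in all libraries (DESeq2 adjusted p = 0.463).

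Outside the members, 6 lists of basement membrane and integrin pathway genes held 143 further genes, of which DESeq2 called 26 higher and 12 lower in GFP+; the shares over all genes tested, 4.66% higher and 4.76% lower, apply to each list below. Of 24 other basement membrane proteins with an adjusted p, 10 were called higher and 2 lower, with a median log2 fold change of 0.65. The type IV collagen genes Col4a1 and Col4a2, which build the network that nidogen reaches, rose by 1.59 (SE 0.21) and 1.55 (SE 0.21), from means of 15503 and 7758 to 46658 and 22680 normalised counts (adjusted p = 8.86e-12 and 4.18e-11 by DESeq2). These 2 genes, and Col15a1, Dag1, Tln1, Fn1 and Vcam1 below, were named after their values were seen. By the rule for named genes, Col4a3 (3.08, SE 0.41) and Col4a4 (1.78, SE 0.33), chains of kidney and lung membranes, and Papln, the papilin gene (1.84, SE 0.55), had the largest rises; Papln was not called by edgeR (adjusted p = 0.0745), and its DESeq2 call was lost on dropping any 1 of GFP+ replicates 1 and 3 and GFP- replicates 1, 2 and 4 (up to 0.0813). Tinagl1, a matrix protein of vessel and smooth muscle membranes (-3.62, SE 0.56), and Ntn4, a netrin that binds laminin (-1.55, SE 0.35), fell. Within GFP-, Tinagl1 ran from 231 normalised counts in replicate 3 to 1126 in replicate 4. These were also the lowest and highest GFP- libraries of the melanocyte marker sum, whose part in the Tinagl1 values was not tested. Scaled to the fibroblast markers, Col4a1, Col4a2, Col4a3, Col4a4 and Col15a1 were still called higher by DESeq2, with log2 fold changes of 0.77, 0.73, 2.14, 0.86 and 0.67, while 6 genes of this list were called lower and its median was -0.20.

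Among 19 tested genes of non-integrin laminin receptors and the dystroglycan complex, 2 were called higher and 5 lower (median 0.02). The heparan sulfate receptor Sdc4 (0.91, SE 0.23) and the syntrophin Sntb2 (0.62, SE 0.17) rose, and Dtna (-1.72, SE 0.33), Mcam (-1.60, SE 0.37) and Gpc1 (-1.42, SE 0.27) fell. Sntb2 changed sign when scaled to the fibroblast markers. Melanocyte markers moved down as well, at sums of 27216 to 81460 in GFP- against 5778 to 14099 in GFP+. Within GFP-, Mcam and Gpc1 were highest in replicate 4 and lowest in replicate 3, as was that sum. The part of these markers in the falls was not tested. Dag1, the dystroglycan gene, had means of 3075 and 3299 (log2 fold change 0.09, SE 0.19, DESeq2 adjusted p = 0.855). All 12 dystroglycan glycosylation enzymes were tested and 0 were called by DESeq2, edgeR or limma voom, with 0 at an unadjusted DESeq2 p below 0.05 (lowest DESeq2 adjusted p = 0.664).

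Of 39 tested genes for integrin activation and focal adhesions, 2 were called higher and 2 lower (median 0.05), or 5.13% each way, close to the shares over all genes. Apbb1ip, which brings talin to integrins (1.23, SE 0.27), and Kank2, a talin-binding protein (0.58, SE 0.14), rose, Kank2 with a change of sign under fibroblast-marker scaling, while Parvb, a parvin (-2.30, SE 0.47), and the kinase gene Src (-0.71, SE 0.20) fell. Src was not called by edgeR (adjusted p = 0.0745), and its DESeq2 call was lost on dropping any 1 of GFP- replicates 2 and 4 and GFP+ replicate 2 (up to 0.0756). Tln1, the talin that switches integrins on, had means of 5012 and 4699 (log2 fold change -0.09, SE 0.14). Of 13 tested tetraspanins and membrane partners, Cd47 (0.87, SE 0.17) and Ptgfrn (0.68, SE 0.18) were called higher and 0 lower by DESeq2 (median -0.05), and Ptgfrn changed sign under that scaling. At an unadjusted DESeq2 p below 0.05, 5 were higher and 1 lower, where 3278 of all genes passed in either direction. Neither edgeR nor limma voom called any of this list lower.

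Of 27 tested integrin ligands other than laminins and collagens, 10, Adam12 among them, were called higher and 3 lower (median 0.42); scaled to the fibroblast markers, DESeq2 called 12 lower, and Ctgf (0.83), Svep1 (0.55), Thbs2 (0.42) and Vcam1 (0.44) did not pass. Ctgf (1.76, SE 0.35), Svep1, a ligand of α9β1 (1.44, SE 0.23), and Thbs2 (1.27, SE 0.33) had the largest rises, and Spp1, the osteopontin gene (-2.85, SE 0.70), and Tnc, the tenascin-C gene (-1.10, SE 0.34), fell. Tnc was not called by edgeR (adjusted p = 0.0737) or limma voom (0.0775), and its DESeq2 call was lost on dropping any 1 of GFP+ replicates 2, 3 and 4 and GFP- replicate 3 (up to 0.115). Fn1, the fibronectin gene and ligand of the Itga5 and Itgb1 pair, had means of 116038 and 77706 (log2 fold change -0.58, SE 0.22, DESeq2 adjusted p = 0.0739) and did not pass. Vcam1, the ligand of Itga4, rose by 1.20 (SE 0.32, DESeq2 adjusted p = 0.00358). The study names Ctgf and Vcam1 among genes it picked from these same libraries, so their direction is not independent evidence.

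Fits without 1 library, edgeR and limma voom divided the 10 called genes into 8 and 2. Nid1, Nid2, Hspg2, Lama2, Lama4, Lamb1, Lamb2 and Lamc1 were called in all 8 DESeq2 fits that leave out 1 library, with log2 fold changes never below 0.53, and in edgeR and limma voom. Lamc3 was called in 6 and Itga2b in 3 of the 8. Scaled to the fibroblast markers, Nid2 was the 1 gene of these 10 that DESeq2 called (0.69, adjusted p = 0.0352).

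**Figure D5:**
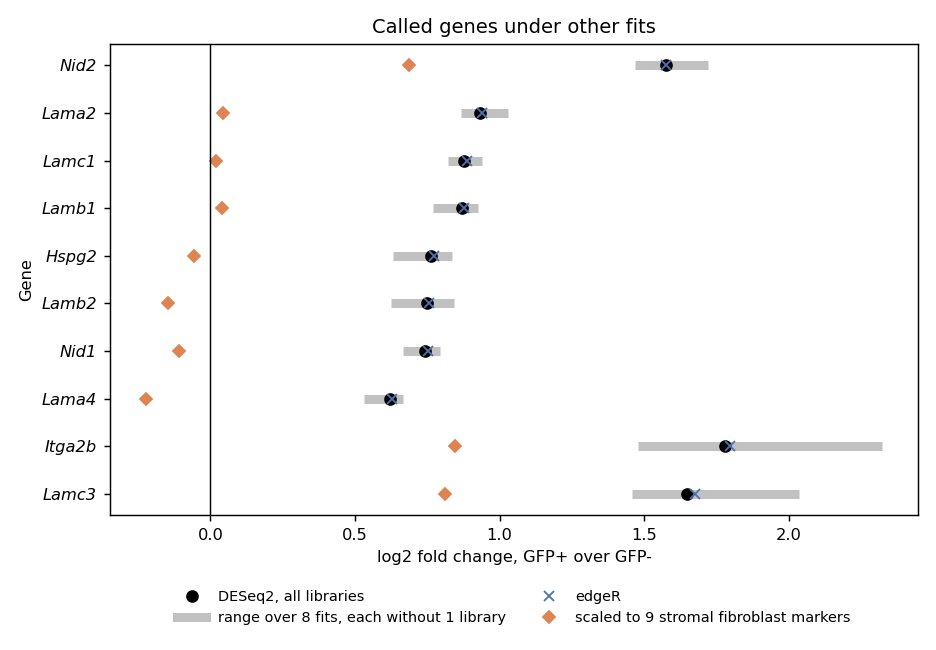
Log2 fold change (GFP+ over GFP-) of the 10 called genes under DESeq2 with all libraries (black), over 8 fits that each leave out 1 library (grey range), in edgeR (blue) and with libraries scaled to 9 stromal fibroblast markers (orange). The first 8 genes have narrow grey ranges, and the orange points of Hspg2, Lamb2, Nid1 and Lama4 lie below 0.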

How the data were processed

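The 8 libraries (4 GFP+, 4 GFP-) came from a low-input stranded total RNA kit. Per the study's methods and the submitters' processing notes, the authors trimmed reads with cutadapt 3.4, mapped them to GRCm38 with STAR 2.7.3a and assigned them to genes by strand with featureCounts 2.0.1. The authors deposited raw read counts per gene and library, which were used here; their normalised counts and the fold changes and p-values of their own comparison stand in the same table and were not used. Reads that match overlapping or near-identical genes can be lost by such counting.

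DESeq2 1.42.0 was run on the 29043 genes counted at least once (R 4.3.3; median-of-ratios size factors, group as the term, two-sided Wald test, independent filtering, Cook's filter), and genes with a Benjamini-Hochberg adjusted p under 0.05 over all genes tested were called. edgeR 4.0.16 (quasi-likelihood, TMM) and limma 3.58.1 (voom) were alternatives, beside other scalings and filters, a replicate block and leaving out each library in turn. Normalised counts are raw counts divided by DESeq2 size factors. Per-kilobase levels used exon lengths of GENCODE M21, which holds 99.8% of the gene identifiers. Members averaging 10 or more raw counts (37 of 41) count as measured; 1 further gene that meets the rule is not reported here and is left out of the member counts. Replicates differed by more than sampling noise (chi-square per degree of freedom 10.2 to 81.3), and the labels give no batch. Values per library are given for members called by either test, the most abundant of each role and Itgb1, and for some others near the threshold; list genes are the 3 largest called changes each way with a mean of at least 100 normalised counts. Scripts were tested on simulated counts. The members and lists were chosen with earlier results of these data known.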

Additional observations from a re-analysis of the deposited data

Results flagged for a closer look

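Among 74 groups of 4 libraries checked (37 genes, 2 groups each), 8 had a library far from the other 3 by Dixon's criterion, where chance gives about 1 in 20. In GFP-, replicate 1 was low for Agrn (262 normalised counts), and replicate 4 was low for Lama4 (4250) and Lamb1 (3523). In GFP- replicate 3, Itgae and Itgb8 were high at 21.97 normalised counts each, which is 2 reads in that library. In GFP+ replicate 1, Itgb6 (792), Lamb3 (243) and Itga9 (1472) were high. Lama4 and Lamb1 were called in every fit that leaves out 1 library.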

How the results depend on the processing

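Under a replicate block, DESeq2 called 10 members higher and 1 lower (Itga6, adjusted p = 0.0071) in place of 0, and 27 and 14 list genes in place of 26 and 12. Same-numbered libraries did not deviate together (correlations -0.158 to 0.262 over 4 pairs, against -0.177 to 0.171 for 12 other pairs), so the numbers were not read as pairs. So few pairs cannot exclude a shared source of same-numbered libraries. With the block the Adam12 change was 0.77 (DESeq2 adjusted p = 0.0324).

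Leaving out 1 library at a time, members called higher numbered 8 to 13 and lower 0 to 2 (2 without GFP+ replicate 1, Itga6 and Lama5, and 2 without GFP+ replicate 2, Itga6 and Itga4), list genes higher 22 to 27 and lower 9 to 14, and the Adam12 change ran from 0.60 to 0.87. With a log2 fold change of at least 1 required, 3 members and 16 list genes were called higher. edgeR gave Adam12 0.76 (adjusted p = 0.0643).

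Scaled to the fibroblast markers, 1 member was called higher and 11 lower, 5 list genes higher and 64 lower, and of all genes 87 higher and 6029 lower, and signs changed for Adam12 (-0.023), Agrn (-0.38), Hspg2 (-0.057), Itga10 (-0.69), Itga5 (-0.49), Itga8 (-0.23), Itgav (-0.76), Itgax (-0.55), Itgb1 (-0.65), Itgb3 (-0.67), Lama4 (-0.22), Lamb2 (-0.15) and Nid1 (-0.11). This scale is set by 9 genes, 6 of them called higher in GFP+ by DESeq2 and 5 by edgeR.

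Other sign changes were in genes that did not pass. limma voom reversed Itga1 (0.0262), Itgal (1.15) and Itgb2 (0.0279), and edgeR Itgal (0.0536). Over fits without 1 library, values crossed 0 for Itga1 (-0.29 to 0.12), Itga10 (-0.12 to 0.62), Itga2 (-0.43 to 0.23), Itgal (-1.35 to 0.90), Itgax (-0.18 to 1.67), Itgb2 (-0.68 to 0.0622), Itgb4 (-0.94 to 0.10), Itgb5 (-0.0819 to 0.0702) and Itgb7 (-0.64 to 0.0022). The cause was not tested.

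Without length correction, the Lama4 share was 48.7% in GFP- and 43.6% in GFP+, below Lama2 at 50.6% and 56.2%, Lamb2 46.3% and 43.6%, and Itga5 22.1% and 28.3%, with Itgav first at 31.0% and 34.0%. Leaving off independent filtering or Cook's filter, TMM factors, size factors from abundant genes, a filter at a mean of 10 raw counts, and an adjusted p below 0.01 left 8 to 10 members called higher and 0 lower. With 883144 counts, GFP- replicate 3 limits genes under about 33 normalised counts, and fits without it called Itga7, Itgb6 and Lamb3 as well.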
